A study of Mus musculus with 8 samples.

Results

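Macrophage genes were followed by subset in 8 whole mammary tumors, with 39 genes chosen by name from those of macrophages and monocytes. All 39 were measured, among 22180 genes that had an array row with 1 gene symbol. They comprise 8 pan-macrophage genes, 3 complement genes, 5 scavenger receptors, 6 resident-like genes, 5 lipid-associated genes, 3 monocyte genes, 5 sensing receptors, 2 genes of the CSF1 axis and 2 arginine enzymes. This division into subsets follows common usage, and several genes could stand in more than one. Only Cd9 had more than 1 such row, and its brightest row, by the mean of all 8 tumors, was used.

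All 8 mice carried MMTV-PyMT, in which the promoter of the mouse mammary tumor virus drives the polyoma middle T antigen in mammary epithelium, and all were Mmp14(f/f), with floxed alleles of the membrane-anchored matrix metalloproteinase Mmp14. In 4 of them MMTV-Cre+ was added, so that the same promoter drives the recombinase in mammary epithelium (conditional knockout, cKO). The other 4 were littermates without the Cre transgene, called wild type in the labels (WT). The mice were congenic FVB/NJ and 3 to 4 months old, and intact tumors came from inguinal and thoracic glands. No group with Cre and without floxed alleles was analysed here, so the transgene and the loss of Mmp14 cannot be told apart. Mmp14 itself lay between 8.86 and 9.31 in WT and between 7.44 and 7.98 in cKO tumors, with a difference of −1.40 (SE 0.13, limma adjusted p 0.0444).

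Macrophages of mammary tumors derive largely from blood monocytes, with a part from cells resident in the gland. Their survival depends on the receptor Csf1r and its ligand Csf1, and the transcription factor PU.1, encoded by Spi1, sets up their gene program. Tumor macrophages are commonly divided by gene sets: complement C1q and receptors for engulfment mark mature cells, Lyve1, Timd4 and Folr2 mark resident-like cells, Trem2 and Gpnmb mark lipid-laden cells, and Ccr2 with Ly6c2 marks recently arrived monocytes. Several of these genes are also read in other cells, such as Cd9, Lgals3 and Csf1 in epithelium and Lyve1, Mrc1 and Stab1 in endothelium of lymphatics or sinusoids. The samples were whole tumors, in which fewer cells of a type and less RNA per cell cannot be told apart.

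Promoter sequence is shown for complement and pan-macrophage genes, because these subsets held the members with the smallest p. The 250 bases before the start site are given 5′ to 3′ on the gene's strand, from RefSeq (GRCm38.p6), with matches to the PU.1 core GAGGAA on either strand in capitals. The complement genes C1qb (chr4:136886201-136886450, minus strand) and C1qc (chr4:136892915-136893164, minus strand) lie close together, and Aif1 (chr17:35176053-35176302, minus strand) and Ms4a7 (chr19:11336147-11336396, minus strand) were among the 4 members with the smallest p. Ms4a6c (chr19:11469118-11469367, plus strand), a relative of Ms4a7 from the same gene family and chromosome, was added after its values were seen, for contrast. Ms4a7 had another start in the table, which is not shown. C1qa and Adgre1 had no promoter in the table, so no sequence is given for them.
C1qb: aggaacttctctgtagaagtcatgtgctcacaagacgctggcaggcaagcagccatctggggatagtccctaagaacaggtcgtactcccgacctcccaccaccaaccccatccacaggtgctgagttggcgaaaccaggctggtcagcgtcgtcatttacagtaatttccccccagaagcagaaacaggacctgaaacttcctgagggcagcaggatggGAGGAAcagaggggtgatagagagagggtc
C1qc: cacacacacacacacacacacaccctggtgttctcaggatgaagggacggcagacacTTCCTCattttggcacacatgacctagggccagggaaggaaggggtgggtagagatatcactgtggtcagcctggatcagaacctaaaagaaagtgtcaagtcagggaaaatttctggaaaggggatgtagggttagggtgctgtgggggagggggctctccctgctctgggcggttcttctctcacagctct
Aif1: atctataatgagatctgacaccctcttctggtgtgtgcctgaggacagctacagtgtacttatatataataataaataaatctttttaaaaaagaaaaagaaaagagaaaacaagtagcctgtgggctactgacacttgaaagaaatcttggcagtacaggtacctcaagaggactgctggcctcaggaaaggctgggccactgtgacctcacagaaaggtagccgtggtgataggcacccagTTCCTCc
Ms4a7: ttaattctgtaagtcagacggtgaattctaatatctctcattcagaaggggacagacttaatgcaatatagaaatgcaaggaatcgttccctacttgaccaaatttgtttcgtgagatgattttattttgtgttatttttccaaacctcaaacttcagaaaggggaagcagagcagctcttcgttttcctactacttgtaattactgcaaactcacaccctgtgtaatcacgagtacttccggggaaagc
Ms4a6c: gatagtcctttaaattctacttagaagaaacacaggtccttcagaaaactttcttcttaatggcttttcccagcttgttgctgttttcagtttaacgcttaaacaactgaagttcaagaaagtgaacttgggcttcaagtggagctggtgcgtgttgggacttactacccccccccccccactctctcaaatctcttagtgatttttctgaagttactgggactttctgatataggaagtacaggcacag

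The PU.1 core began 30 bases before the start in C1qb, 193 bases before it in C1qc and 7 bases before it in Aif1. It was in neither window of Ms4a7 and not in that of Ms4a6c. Of the 29 members with a promoter in the table, 15 (51.7%) held it in at least 1 window, against 25.9% of all 27025 genes in the table. These were, by subset, 2 of 2 complement genes, 2 of 6 pan-macrophage genes, 3 of 4 scavenger receptors and 2 of 4 resident-like genes. They were also 2 of 5 lipid-associated genes and 3 of 4 sensing receptors. In the monocyte genes it was 1 of 3, and in the CSF1 axis 0 of 1. Members without a promoter in the table, such as C1qa, are not in these counts. The RUNX core TGTGGT was in 6 members (20.7%, against 15.9% of all genes), the AP-1 core TGANTCA in 4 (13.8%, against 7.82%) and the interferon-type element, GAAA repeated after 2 bases, in 1, Aif1 (3.45%, against 3.46%). Each was searched on both strands. The motifs were counted separately, overlaps included.

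No member passed the threshold of an adjusted p of 0.05 in limma, which 2 of 23521 rows (0.0085%) passed. Pan-macrophage genes, apart from Ms4a6c at 0.00, and complement genes had higher means in cKO tumors, and the other subsets held genes on both sides of 0 (plots of values and differences by gene). The members were chosen with earlier results of these data known, so the shares of all rows are a description and not a test. At an unadjusted p below 0.05 in limma there were 12 of 39 members, against 9.68% of all rows. Of the 39, 10 were higher in cKO, against 5.54% of all rows, and 2 were lower, against 4.14%. All 10 higher had a mean above 5, and of rows with a mean of at least 5, 8.11% were higher at such a p. Of the 10 higher, 6 were pan-macrophage genes, 3 were the complement genes and 1 was Cx3cr1. The values of the groups did not overlap for 6 members, against 5.42% of all rows. All 6 were higher in cKO, where 3.68% of all rows were higher in this way and 1.73% lower. Of rows with a mean of at least 5, 4.96% were higher without overlap. The median difference over the 39 was 0.16 on the log2 scale, and over all rows it was 0.0227. The first was 0.08 without WT 4 and 0.09 without cKO 4. By mean, 26 of 39 members were higher in cKO, against 56.5% of all rows. With any 1 tumor left out, limma found between 9 and 11 members higher at an unadjusted p below 0.05 and between 0 and 4 lower. Among those higher, 9 had an unadjusted p below 0.05 in each of these 8 fits, and the exception was Mpeg1, with 4 of 8. Of the 2 lower, neither did: Csf1 had such a p in 3 of the 8 fits and Ly6c2 in 5.

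**Figure D1:**
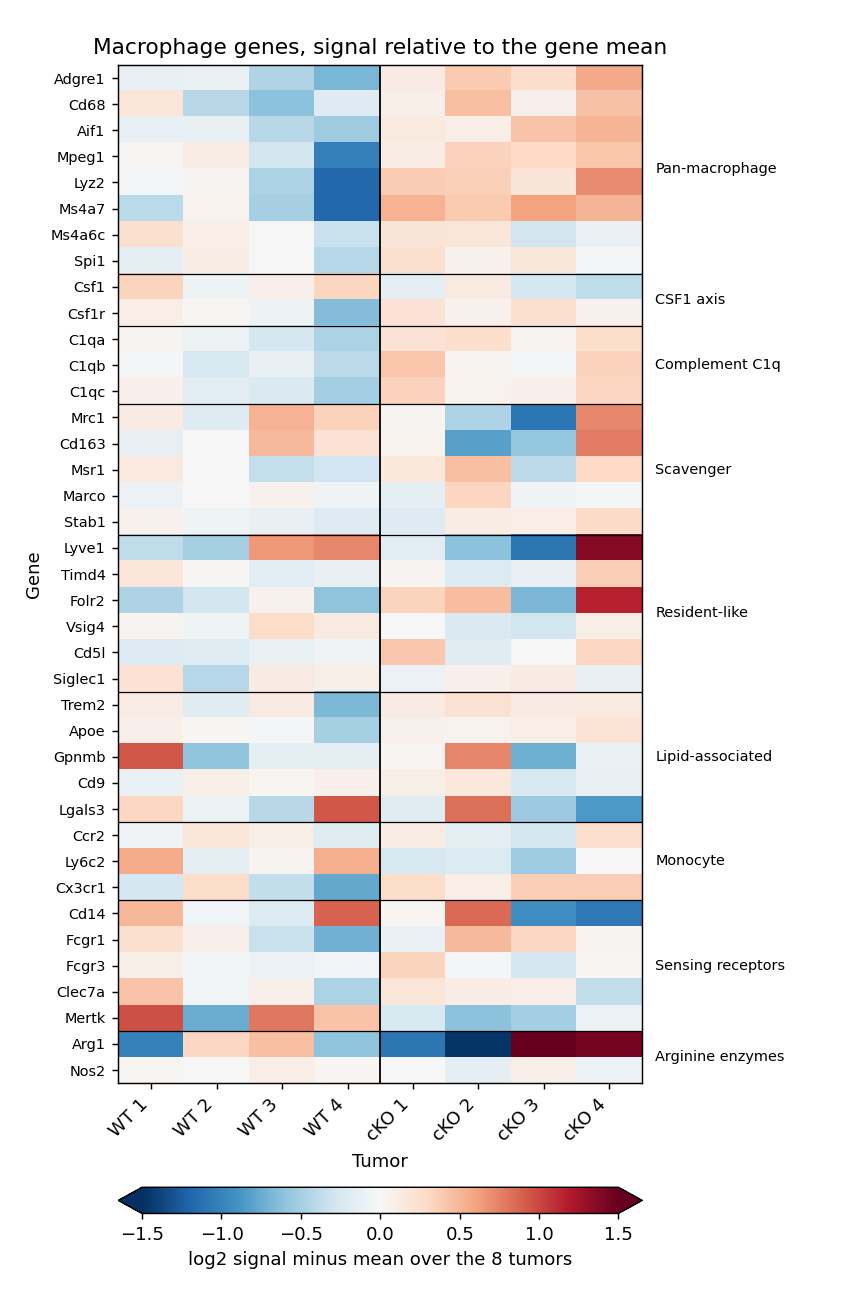
Log2 signal of the 39 macrophage genes in each tumor, less the gene's mean over the 8 tumors. Rows are genes, ordered by subset, and columns are tumors, with colours past 1.5 shown as the end colour. The pan-macrophage and complement rows are mostly below their mean in WT and above it in cKO, though Ms4a6c lies on both sides in both groups. They are lowest in WT 4, except Cd68, which is lowest in WT 3.

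**Figure D2:**
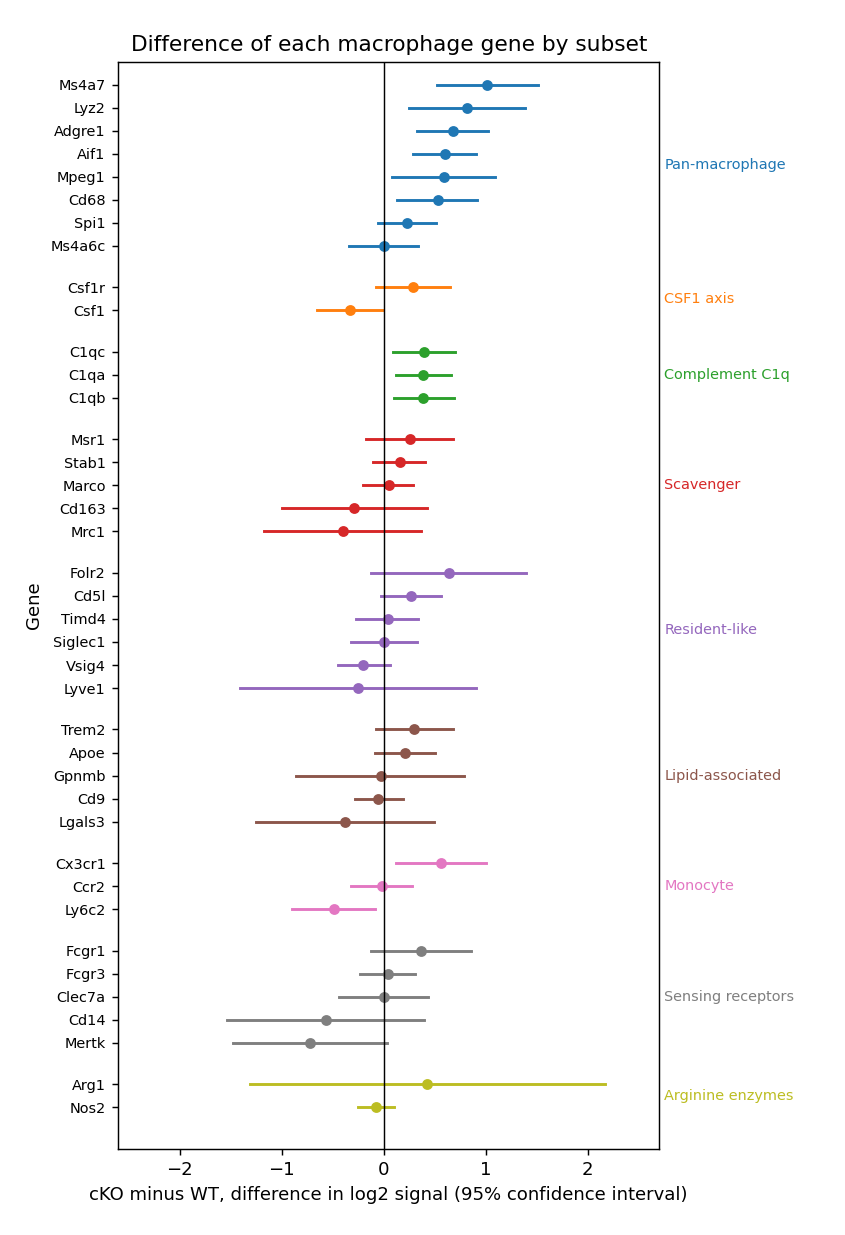
Difference in log2 signal between cKO and WT tumors for each gene, with limma's 95% confidence interval (n = 4 per group). The intervals of 6 pan-macrophage genes, the 3 complement genes and Cx3cr1 lie above 0, and those of Csf1 and Ly6c2 lie below it; the intervals are not adjusted for the number of genes.

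Among the pan-macrophage genes, 6 of 8 were higher in cKO at an unadjusted p below 0.05, and the median difference was 0.59. Ms4a7, a tetraspan membrane protein of mature macrophages, had log2 signals of 6.07, 6.53, 5.98 and 5.30 in WT 1 to 4 and of 7.0, 6.87, 7.08 and 6.99 in cKO 1 to 4. All cKO tumors lay above all WT tumors, and they spread less among themselves (SD 0.09 against 0.51, n = 4 per group). The difference was 1.01 (SE 0.22, 95% confidence interval 0.52 to 1.51), a signal 2.02 times that of WT, with limma's unadjusted p at 0.00126 and its adjusted p at 0.200.

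Adgre1 encodes the surface receptor by which mouse macrophages are usually recognised. It stood at 5.84, 5.86, 5.51 and 5.27 in the WT tumors and at 6.08, 6.35, 6.22 and 6.53 in the cKO tumors, with no overlap. The difference was 0.68 (SE 0.15, limma adjusted p 0.211). Aif1, an actin-binding protein of macrophages, read 5.71, 5.73, 5.42 and 5.30 in WT and 5.99, 5.94, 6.27 and 6.35 in cKO. The groups were again apart, by 0.60 on average (SE 0.14, limma adjusted p 0.212).

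Lyz2, the lysozyme of macrophages and granulocytes, measured 8.70, 8.77, 8.26 and 7.55 in WT and 9.11, 9.09, 8.92 and 9.44 in cKO. Its difference of 0.82 (SE 0.25, limma adjusted p 0.358) became 0.56 without WT 4, the lowest tumor. Mpeg1, a pore-forming protein of phagocytes, measured 7.37, 7.46, 7.07 and 6.32 in WT and 7.46, 7.69, 7.65 and 7.76 in cKO. The groups touched here, with a gap of 0.00637, and the difference of 0.59 (SE 0.23, limma adjusted p 0.464) was 0.34 without WT 4. Cd68, a glycoprotein of lysosomes and endosomes, overlapped between the groups, from 6.79 to 7.59 in WT and from 7.48 to 7.86 in cKO, with a difference of 0.53 (SE 0.18).

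The remaining pan-macrophage genes differed less. Spi1 lay between 5.37 and 5.91 in WT and between 5.78 and 6.04 in cKO, a difference of 0.23 (SE 0.12, limma unadjusted p 0.101) that was 0.12 without WT 4. Ms4a6c read 6.57, 6.43, 6.32 and 5.99 in WT and 6.52, 6.51, 6.05 and 6.23 in cKO. Its groups lay over one another, with a difference of 0.00 (95% confidence interval −0.34 to 0.34), while that of its relative Ms4a7 was 1.01; the difference between the 2 genes was not tested.

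**Figure D3:**
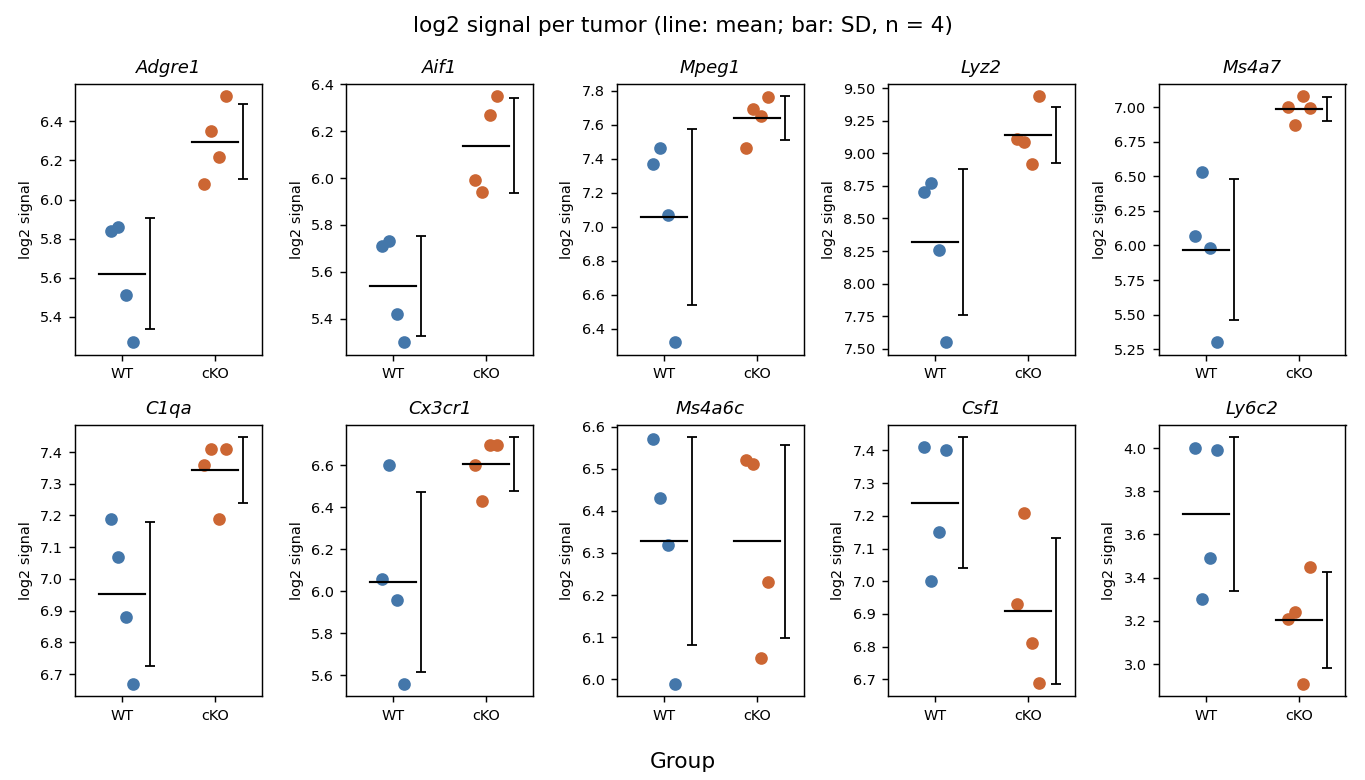
Log2 signal of 10 macrophage genes in each of the 4 WT and 4 cKO tumors, as points, with the mean as a line and the SD as a bar. The first 6 panels are the genes whose groups did not overlap, of which Mpeg1 and C1qa touch; Cx3cr1, Ms4a6c, Csf1 and Ly6c2 overlap. The axes do not start at 0 and differ between panels.

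The complement genes C1qa, C1qb and C1qc encode the chains of the recognition molecule of the classical pathway, which macrophages make and which binds dying cells. All 3 were higher in cKO by nearly the same amount. C1qa read 7.19, 7.07, 6.88 and 6.67 in WT and 7.36, 7.41, 7.19 and 7.41 in cKO, so that the groups touched without overlap, at a gap of 0.00856. Its difference was 0.39 (SE 0.12, limma adjusted p 0.354). C1qb read 7.77, 7.55, 7.68 and 7.39 in WT and 8.21, 7.84, 7.77 and 8.14 in cKO, a difference of 0.39 (SE 0.13, limma adjusted p 0.394). C1qc read 6.15, 5.92, 5.86 and 5.56 in WT and 6.42, 6.12, 6.15 and 6.40 in cKO, a difference of 0.40 (SE 0.13, limma adjusted p 0.410). In each of these, cKO 1 and cKO 4 lay above all WT tumors, and WT 4 was the lowest of the 8.

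The ligand and the receptor of the CSF1 axis pointed in opposite directions. Csf1, the growth factor, read 7.41, 7.0, 7.15 and 7.40 in WT and 6.93, 7.21, 6.81 and 6.69 in cKO. In 3 of 4 cKO tumors it was below all WT tumors, with a difference of −0.33 (SE 0.14, limma unadjusted p 0.0394, adjusted p 0.493). The unadjusted p rose to as much as 0.106 with 1 tumor left out. Its receptor Csf1r read 7.28, 7.21, 7.10 and 6.53 in WT and 7.39, 7.24, 7.42 and 7.24 in cKO, a difference of 0.29 (SE 0.16, limma unadjusted p 0.0999). That difference was 0.12 without WT 4.

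None of the 5 scavenger receptors had an unadjusted p below 0.05, and their median difference was 0.05. Mrc1, the mannose receptor, read 6.08, 5.77, 6.48 and 6.30 in WT and 6.0, 5.49, 4.87 and 6.68 in cKO. The cKO tumors held both the highest and the lowest value, with a difference of −0.40 (SE 0.34) that ran from −0.71 without cKO 4 to −0.10 without cKO 3. Cd163, the receptor for haptoglobin with hemoglobin, also spread more in cKO, from 3.16 to 4.75, than in WT, from 3.86 to 4.47 (difference −0.29, SE 0.32, and −0.06 without cKO 2 or −0.59 without cKO 4). Msr1, which takes up modified lipoproteins, read 5.22, 5.07, 4.71 and 4.78 in WT and 5.23, 5.52, 4.68 and 5.37 in cKO (difference 0.26, SE 0.19, and 0.15 without cKO 2 or 0.43 without cKO 3). Stab1 read 5.56, 5.43, 5.39 and 5.30 in WT and 5.30, 5.61, 5.60 and 5.79 in cKO (difference 0.16, SE 0.11, and 0.25 without cKO 1 or 0.09 without cKO 4). Marco, with all values from 3.48 to 3.95, differed by 0.05.

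The 6 resident-like genes had a median difference of 0.02 and none with an unadjusted p below 0.05. Folr2, a folate receptor, read 4.72, 4.90, 5.25 and 4.58 in WT and 5.51, 5.64, 4.50 and 6.35 in cKO. It was above all WT tumors in 3 cKO tumors and below them in cKO 3, with a difference of 0.64 (SE 0.34, limma unadjusted p 0.0903), of 0.97 without cKO 3 and of 0.36 without cKO 4. Lyve1, a receptor for hyaluronan, ran from 4.79 to 6.01 in WT and from 4.19 to 6.65 in cKO (difference −0.25, SE 0.51, and −0.75 without cKO 4 or 0.07 without cKO 3). Cd5l read 1.97, 1.98, 2.06 and 2.11 in WT and 2.57, 1.98, 2.16 and 2.47 in cKO (difference 0.27, SE 0.13, limma unadjusted p 0.0737, and 0.17 without cKO 1). Vsig4, a complement receptor, read 2.31, 2.20, 2.54 and 2.40 in WT and 2.27, 2.05, 1.99 and 2.36 in cKO (difference −0.20, SE 0.11). All values of Cd5l and Vsig4 were well below the array medians of 3.64 to 3.71, which limits what they can show. Timd4, which binds phosphatidylserine, differed by 0.04, with all its values below these medians as well. The sialic acid receptor Siglec1 differed by 0.00.

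Mrc1, Cd163, Lyve1 and Folr2 shared a pattern across tumors, noticed after their values were seen. In all 4 genes cKO 4 was the highest of the 8 tumors, and cKO 3 was the lowest for Mrc1, Lyve1 and Folr2. The pattern was not particular to them. The monocyte gene Ccr2 was also highest in cKO 4, at 3.47, and lowest in cKO 3, at 2.95. Outside the members, Ccl8 (6.26 and 4.02) and Maf (5.48 and 4.87) were among the genes with the same extremes. Over all 39 members, cKO 4 was the highest tumor for 13 and cKO 3 the lowest for 10. The score of the fibroblast markers was −2.0 in cKO 3 and 0.53 in cKO 4, between 0.21 and 0.83 in WT, and lower in cKO for 6 of 6 genes. The blood endothelial score was −0.44 in cKO 3 and 0.23 in cKO 4, between −0.09 and 0.32 in WT, and lowest in cKO 2, at −0.49. Stab1 did not share the pattern: it was highest in cKO 4, at 5.79, but cKO 3, at 5.60, was above all WT tumors. Of the 4 lymphatic markers measured, Pdpn (5.26 in cKO 3 and 6.22 in cKO 4) and Flt4 (4.59 and 4.83) were also lowest in cKO 3 and highest in cKO 4. The lymphatic score was 0.27 in cKO 3 and 0.43 in cKO 4, and in cKO 3 Prox1, at 6.76, was its highest value of the 8 tumors. A score here is the mean over a list of the log2 signal less the gene's mean over the 8 tumors. The part of these cells in the pattern was not tested.

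The lipid-associated genes had a median difference of −0.03, and none had an unadjusted p below 0.05. Trem2, a lipid receptor, read 5.85, 5.56, 5.88 and 5.07 in WT and 5.86, 5.97, 5.87 and 5.88 in cKO. All 4 cKO tumors lay beside the highest WT values, and the difference of 0.30 (SE 0.17, limma unadjusted p 0.102) was 0.13 without WT 4. Apoe, the lipid carrier, read 5.41, 5.37, 5.31 and 4.84 in WT and 5.40, 5.39, 5.44 and 5.54 in cKO (difference 0.21, SE 0.13, and 0.08 without WT 4). Lgals3, a galectin, read 5.37, 4.98, 4.64 and 5.99 in WT and 4.87, 5.88, 4.51 and 4.19 in cKO (difference −0.38, SE 0.39, and −0.72 without cKO 2 or −0.13 without WT 4). Gpnmb, a glycoprotein of lipid-laden cells, spread from 4.30 to 5.84 in WT and from 4.17 to 5.64 in cKO and differed by −0.03 (SE 0.37). Cd9, a tetraspanin with values between 10.65 and 11.03 in all tumors, differed by −0.05.

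The 3 monocyte genes did not move as a set. Cx3cr1, the fractalkine receptor, read 6.06, 6.60, 5.96 and 5.56 in WT and 6.60, 6.43, 6.70 and 6.70 in cKO, a difference of 0.56 (SE 0.19, limma unadjusted p 0.0178, adjusted p 0.423). Only WT 2 reached into the cKO range. Ly6c2, a surface marker of classical monocytes, read 4.00, 3.30, 3.49 and 3.99 in WT and 3.21, 3.24, 2.91 and 3.45 in cKO. That is a difference of −0.49 (SE 0.18, limma unadjusted p 0.0237, adjusted p 0.447), with 3 of 4 cKO tumors below all WT tumors. The unadjusted p rose above 0.05 without WT 1, WT 4 or cKO 3, to at most 0.0693. Ccr2, the chemokine receptor that brings monocytes out of the marrow, read 3.17, 3.40, 3.31 and 3.04 in WT and 3.33, 3.08, 2.95 and 3.47 in cKO and differed by −0.02 (95% confidence interval −0.32 to 0.28). Ccr2 and Ly6c2 were among 9 members with a mean below 4, near or below the array medians of 3.64 to 3.71. At such levels a change in RNA may show as a smaller change in signal. The other members with a mean below 4 were Cd163, Marco, Timd4, Vsig4, Cd5l, Clec7a and Nos2. Of these, Cd5l and Vsig4 were well below the medians, and all values of Timd4 and Nos2 were below them too.

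Among the sensing receptors the median difference was 0.00. Mertk, a kinase receptor for the engulfment of dying cells, read 6.62, 4.91, 6.44 and 6.08 in WT and 5.42, 5.04, 5.14 and 5.56 in cKO. In 3 of the 4 WT tumors it was above all cKO tumors, and WT 2 was below them. The difference was −0.72 (SE 0.33, limma unadjusted p 0.0588), and without WT 2 it was −1.09 (unadjusted p 0.000213). Cd14, the co-receptor for bacterial lipopolysaccharide, read 9.09, 8.55, 8.39 and 9.48 in WT and 8.63, 9.45, 7.66 and 7.52 in cKO, a difference of −0.56 (SE 0.43). It ran from −0.94 without cKO 2 to −0.30 without cKO 4. Fcgr1, the high-affinity receptor for IgG, read 6.09, 5.92, 5.51 and 5.12 in WT and 5.74, 6.33, 6.16 and 5.89 in cKO (difference 0.37, SE 0.22, and 0.19 without WT 4). The low-affinity receptor Fcgr3 differed by 0.04 and the fungal glucan receptor Clec7a by 0.00.

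Arg1 and Nos2, enzymes that compete for arginine, showed no common direction. Arg1 varied most of the 39 genes by SD in cKO, with 7.90, 9.22, 9.37 and 8.31 in WT and 7.83, 7.44, 10.89 and 10.35 in cKO. The pair of high cKO tumors and the pair of low ones lay on either side of the WT tumors, and the difference was 0.43 (SE 0.77), from −0.16 without cKO 3 to 0.99 without cKO 2. Nos2 read 3.15, 3.13, 3.22 and 3.15 in WT and 3.12, 2.98, 3.21 and 3.04 in cKO, a difference of −0.07 (SE 0.08). All these values were below the array medians, which limits what they can show of a direction.

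The subset scores summarise these values by tumor (plot of scores by subset). The pan-macrophage score was −0.05, −0.03, −0.34 and −0.70 in WT 1 to 4 and 0.23, 0.29, 0.22 and 0.38 in cKO 1 to 4, without overlap. The complement score was 0.03, −0.16, −0.20 and −0.46 in WT and 0.33, 0.12, 0.04 and 0.31 in cKO, also without overlap, though WT 1 and cKO 3 nearly met. In the other subsets the groups overlapped, with group means between −0.09 and 0.09. Set against the pan-macrophage score of the same tumor, the complement score differed by −0.16 between the groups, the scavenger score by −0.60, the resident-like score by −0.47, the lipid-associated score by −0.54 and the monocyte score by −0.54. For the sensing receptors this was −0.73, for the CSF1 axis −0.58 and for the arginine enzymes −0.38. The groups did not overlap in the monocyte score so taken, from 0.12 to 0.56 in WT and from −0.37 to −0.17 in cKO, nor in that of the CSF1 axis, from 0.01 to 0.54 and from −0.54 to −0.19. These relative values contain the pan-macrophage difference itself, and no difference between subsets was tested.

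**Figure D4:**
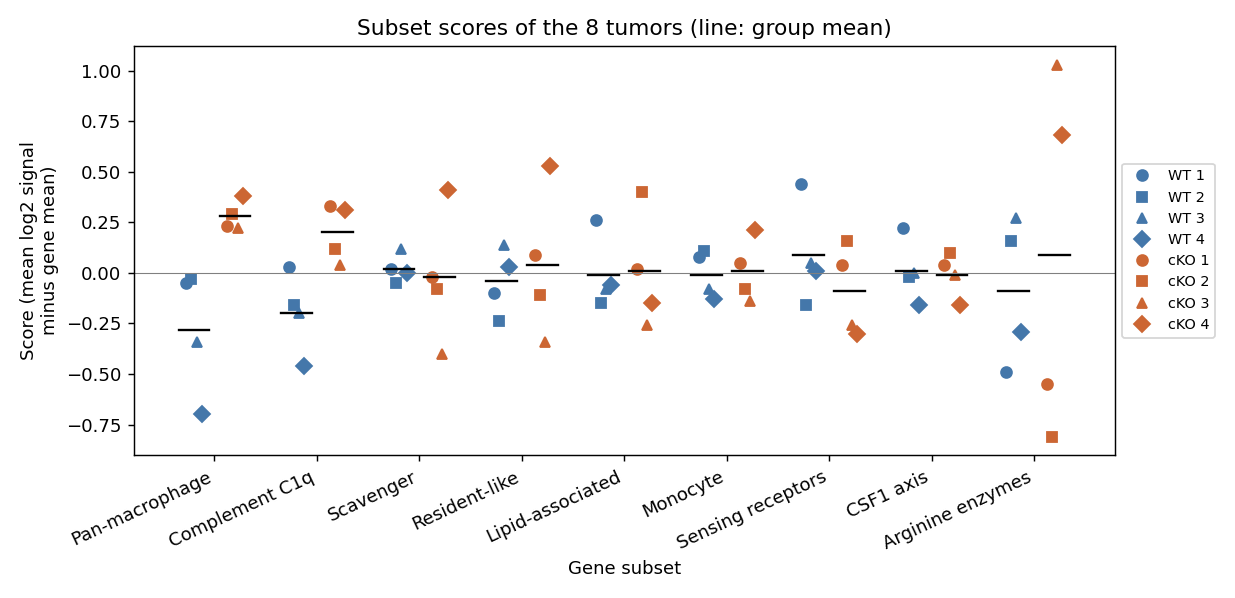
Score of each macrophage subset in each tumor, as the mean over its genes of the log2 signal less the gene's mean over the 8 tumors. Blue marks are WT, orange marks are cKO, the shape gives the tumor's number and lines are group means. The pan-macrophage and complement scores do not overlap between the groups, and the other 7 do.

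WT 4 was the lowest of the 8 tumors for 17 of the 39 genes and cKO 4 the highest for 13. Without WT 4 the median difference was 0.53 for the pan-macrophage genes and 0.30 for the complement genes. The same 6 genes were without overlap, but leaving out a tumor could not have changed this for them. The array numbers in the labels place 2 tumors of each group in arrays 1 to 4 and 2 in arrays 5 to 8. The pan-macrophage median was 0.30 within the first set and 0.97 within the second, and the complement median was 0.26 and 0.53. Ms4a7 differed by 0.63 and 1.39, Adgre1 by 0.37 and 0.99, Cx3cr1 by 0.18 and 0.94. The direction of other members changed between the sets, as in Arg1, with −0.93 and 1.79, Cd14, with 0.22 and −1.35, and Lgals3, with 0.21 and −0.96.

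Other genes of macrophage biology were taken from lists, and none passed the adjusted threshold. Their counts at an unadjusted p stand beside 5.54% of all rows higher and 4.14% lower. Of 8 measured signalling adaptors, 3 were higher at an unadjusted p below 0.05 and none lower, with a median of 0.27. Tyrobp, the adaptor through which Trem2 signals, was at 5.20 ± 0.27 (SD, n = 4) in WT and at 5.73 ± 0.18 in cKO, and the Fc receptor gamma chain Fcer1g differed by 0.28 (SE 0.10). Of 12 lysosomal and lipid-handling genes, 1 was higher and 3 lower, with a median of −0.17. The fatty acid binding protein Fabp5 was at 7.61 ± 0.16 (SD, n = 4) in WT and at 8.48 ± 0.39 in cKO, and the lipase Lpl at 5.71 ± 0.52 and 4.58 ± 0.60. These are the brightest of 4 rows for Fabp5 and of 2 for Lpl, and their other rows are not given. Of 9 transcription factors, 1 was lower, Runx1, at 9.08 ± 0.13 in WT and 8.59 ± 0.09 in cKO, and Cebpa differed by −0.36 (SE 0.20). Of 11 growth and recruitment factors, 1 was lower, the Cx3cr1 ligand Cx3cl1, by −0.30 (SE 0.13), and Cxcl12 differed by 0.20 (SE 0.11). Of 6 genes of class 2 antigen presentation none had an unadjusted p below 0.05, with H2-Aa at −0.22 and Ciita at 0.11.

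Markers of other cells were read beside the macrophage genes. All 5 pan-leukocyte markers were higher in cKO, by a median of 0.29, 1 of them at an unadjusted p below 0.05 (Itgb2, 0.37, SE 0.16), and Cd53 differed by 0.29. Their score lay between −0.46 and 0.15 in WT and between 0.00 and 0.31 in cKO, and it too was lowest in WT 4. The neutrophil markers had a median of −0.01 over 9 genes, with Csf3r at 0.27 and Mmp8 at 0.14, and the dendritic cell markers one of −0.01 over 7, with Siglech at −0.24 and Ccr7 at 0.12. T cell markers had a median of 0.07 over 6, with Cd3d at −0.22 and Cd4 at 0.68, and B cell markers one of 0.00 over 4, with Pax5 at 0.15 and Ms4a1 at −0.03. All 6 fibroblast markers were lower (median −1.15, with Col1a1 at −1.36 and Postn at −1.26), as were all 6 of blood endothelium (−0.30, with Erg at −0.59 and Kdr at −0.20) and all 6 of luminal epithelium (−0.23, with Krt19 at −1.15 and Cdh1 at −0.21). Adipocyte markers had a median of 0.16, with Adipoq at 0.22 and Plin1 at 0.12, lymphatic markers one of 0.04, with Pdpn at −0.19 and Prox1 at 0.56, and basal markers one of −0.17, with Acta2 at −0.52 and Trp63 at −0.21. Proliferation markers were higher in 5 of 5, without overlap (median 0.70, with Mcm5 at 0.80 and Plk1 at 0.70), against 3.68% of all rows higher in this way. Among the markers of this paragraph, Col1a1, Postn, Erg and Kdr were lower without overlap, against 1.73% of all rows. The part of these other cells in the macrophage differences was not tested.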

How the data were processed

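Total RNA of 8 whole tumors (400 ng each) was made into biotin-labelled cDNA and hybridised to Affymetrix arrays, per the labels' protocols. The authors deposited a log2 signal for each row in each tumor. RMA (background correction, normalization between arrays, probe summary) and limma are named in the submitters' processing notes. Versions and parameters were not found (not given in the sources used here), and no detection calls were used. Of 41345 rows, 23521 with 1 symbol in the platform annotation were tested, 1814 had several symbols and 16010 are unnamed here. Symbols were set by gene identifier to the RefSeq table of GRCm38.p6, which left all as they were. Array medians lay between 3.64 and 3.71 and pairwise r between 0.976 and 0.989.

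The cKO and WT tumors were compared over all 23521 rows with limma 3.58.1 in R 4.3.3 (lmFit, eBayes, two-sided, no covariate, Benjamini-Hochberg over all rows, threshold 0.05). The script was tested on simulated data. The members and gene lists were chosen with earlier results of these data known. Up to 3 members per subset with the smallest p, and all without overlap, are given by tumor, and of other lists the 2 genes with the smallest p. An exact two-sided permutation of 4 against 4 allows no p below 0.0286. Any gene without overlap has that p, so for the 6 members it adds nothing to the lack of overlap. Of 122 genes in the other lists, 112 were measured, each read by its brightest row. Whether replicate numbers pair tumors is not known, and 4 correlations of same-numbered tumors' deviations, of mixed sign, cannot decide it. The main comparison took the tumors as unpaired.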

Additional observations from a re-analysis of the deposited data

Results flagged for a closer look

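In 3 groups 1 tumor stood far from the other 3 by Dixon's test at the 95% level, out of 80 groups tested (39 members and Mmp14, in WT and cKO); about 1 in 20 is flagged by chance. Apoe in WT 4 was 4.84, against 5.31 for the nearest WT tumor. Clec7a in cKO 4 was 3.52, against 3.99 for the nearest cKO tumor. Trem2 in cKO 2 was 5.97, against 5.88 for the nearest cKO tumor, in a group with an SD of 0.05.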

How the results depend on the processing

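No member passed the adjusted threshold in limma under any of the 16 alternatives, and between 9 and 12 were higher at an unadjusted p below 0.05. The number of members lower at that p was 2, and it was 1 without dim rows and between 0 and 4 with 1 tumor left out. Over all rows, 2 passed the adjusted threshold, 1 with the array set (1 to 4, 5 to 8) as a block, 0 with the replicate number as a block, and between 0 and 3 with 1 tumor left out. No paired reading was drawn from the replicate block, as it is not known whether replicate numbers pair tumors. Correlations of same-numbered tumors' deviations were −0.0212, −0.20, 0.294 and −0.245, too few to decide this. With the replicate block 10 members were higher and 2 lower at an unadjusted p below 0.05 in limma. The Mmp14 difference was −1.40 under both blocks and between −1.48 and −1.30 with 1 tumor left out.

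Leaving out dim rows (mean under 4) removed 9 members, so that the monocyte median, −0.02 over 3 genes, became 0.56 from Cx3cr1 alone, and that of the sensing receptors went from 0.00 to −0.26. The median over all 39 was 0.16, and between 0.08 and 0.20 with 1 tumor left out. Without dim rows it was 0.27 over the remaining 30 members, a different set of genes. The lipid-associated median ran from −0.11 to 0.27 with 1 tumor left out. The pan-macrophage median stayed between 0.53 and 0.69 and the complement median between 0.30 and 0.47 under all alternatives. Members near 0 changed sign: with array weights Siglec1 was −0.05, Ccr2 0.02 and Clec7a −0.04, with quantile normalization Gpnmb was 0.01, and with the mean of all its rows Cd9 was 0.10. With 1 tumor left out, the differences ran from −0.11 to 0.09 for Ms4a6c, −0.05 to 0.10 for Marco, −0.75 to 0.07 for Lyve1, −0.08 to 0.11 for Timd4 and −0.14 to 0.08 for Siglec1. They ran from −0.28 to 0.27 for Gpnmb, −0.11 to 0.02 for Cd9, −0.11 to 0.06 for Ccr2, −0.06 to 0.13 for Fcgr3, −0.15 to 0.15 for Clec7a and −0.16 to 0.99 for Arg1. The count without overlap was an alternative chosen after seeing the data. With 1 tumor left out, it was between 6 and 11 members higher and between 0 and 2 lower. Of all rows, between 5.0% and 7.28% were higher and between 2.68% and 4.22% lower in this way. Leaving out a tumor cannot create an overlap, so the count of members higher could not fall below 6. The 2 lower came without WT 2, which also gave the 4.22%. The cause of these changes was not tested. Signal over background was not given, so dim members are limited in what they can show.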
